A study of Mus musculus with 17 samples.

Results

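The Sertoli cell genes described here are 10 of the 55359 genes in the count table: Sox9, Amh, Dhh, Inha, Inhbb, Fshr, Wt1, Gata4, Cldn11 and Aard. They were taken by name, as the rows whose Ensembl identifier carries one of these symbols in the mouse GENCODE annotation. Each was found once. All 10 had at least 251 counts in every testes library and passed the filter on low counts there. In forebrain, 5 of them passed it (Sox9, Inha, Inhbb, Cldn11 and Aard) and the other 5 had at most 12 counts in any library.

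The tissues came from male mice at postnatal day 1 of the OcnGK strain, in which Osteocalcin (Ocn), the gene of a hormone made in bone, was disrupted by homologous recombination. The study compared WT, Ocn+/- (labelled Het) and Ocn-/- (labelled KO) pups to see which genes respond to osteocalcin during gestation. WT pups had WT mothers, whereas the Ocn+/- and Ocn-/- pups all had Ocn-/- mothers. Against WT, the genotype of the pup, the genotype of its mother and the litter therefore cannot be told apart, while the 2 mutant genotypes share the mother's genotype. There were 8 testes libraries, 2 from WT, 3 from Ocn+/- and 3 from Ocn-/- mice, and 9 libraries of forebrain, which the labels call hippocampus, 3 of each genotype. The study counts the testes samples as mice, and the labels do not say which litters the samples came from, so that the p-values measure the spread between these libraries. The reads per gene were deposited as RSEM's expected counts, an estimate that divides reads matching several genes among them. Levels are given as CPM, the count of a gene relative to the library total scaled with TMM factors within the tissue, and as mean ± SD. A gene was called where the quasi-likelihood test of edgeR gave an adjusted p below 0.05.

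Sertoli cells are the somatic cells of the seminiferous cords that enclose and nourish the germ cells. In the fetal gonad Sox9 turns supporting cells into Sertoli cells, and these then make anti-Müllerian hormone, Desert hedgehog and the inhibin subunits, which act on the Müllerian duct, on Leydig and peritubular cells and on the pituitary. Around birth Sertoli cells still divide, under the drive of follicle-stimulating hormone (FSH), and the tight junctions of the blood-testis barrier are not yet closed.

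Totals ran from 7302401 to 8289015 counts in testes and from 6518151 to 14621584 in forebrain. Forebrain WT 3 stood apart, with the lowest total and 8.50% of its counts on the ribosomal RNA gene Rn18s-rs5 against 0.261% to 0.805% in the other 8 forebrains. The genotype could not be checked on the osteocalcin and related genes: Bglap had at most 2 counts in a testes library and at most 5 in a forebrain, Bglap2 had 0 in all 17 libraries, and Bglap3 had 2 to 17 in testes and 0 to 3 in forebrain. The labelled tissue was checked on defining markers. In testes the germ cell helicase Ddx4 lay between 65.0 and 81.5 CPM, Acta2 of peritubular myoid cells between 438 and 673 CPM and the steroidogenic carrier Star of Leydig cells between 56.0 and 518 CPM, whereas Foxl2 of ovarian granulosa cells stayed between 0.379 and 4.92 CPM. Forebrain held Slc1a3 of radial glia at 326 to 454 CPM and Olig2 of the oligodendrocyte lineage at 21.0 to 30.5 CPM.

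In testes, Sox9 was about 2-fold higher in both mutant genotypes than in WT, and it was the only one of the 10 genes that passed the test. Of all 16361 genes tested, 8.25% were called between Ocn+/- and WT and 5.64% between Ocn-/- and WT, so that 1 of 10 lies near the share found among all genes. The other 9 did not pass in either comparison. Their differences from WT ran from a log2 fold change of -0.38 for Inhbb in Ocn+/- to 0.66 for Aard in Ocn-/- testes. Where the libraries of a gene are said below to lie above or below WT, this describes their order only. The share of all genes that separate so from the 2 WT libraries was not counted. The 10 genes had a median log2 fold change of 0.13 (Ocn+/-) and 0.12 (Ocn-/-), against 0.0066 and -0.0064 over all genes tested. Without Ocn-/- 3 the median in Ocn-/- mice was -9.6e-05, and with each other library left out it lay between 0.12 and 0.25. In Ocn+/- mice it ran from 0.058 without WT 2 to 0.20 without Ocn+/- 2. With the replicate number as a block the median was 0.0037 (Ocn+/-) and 0.034 (Ocn-/-). In bulk tissue, a lower number of cells of a type and less RNA per cell cannot be told apart.

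**Figure D1:**
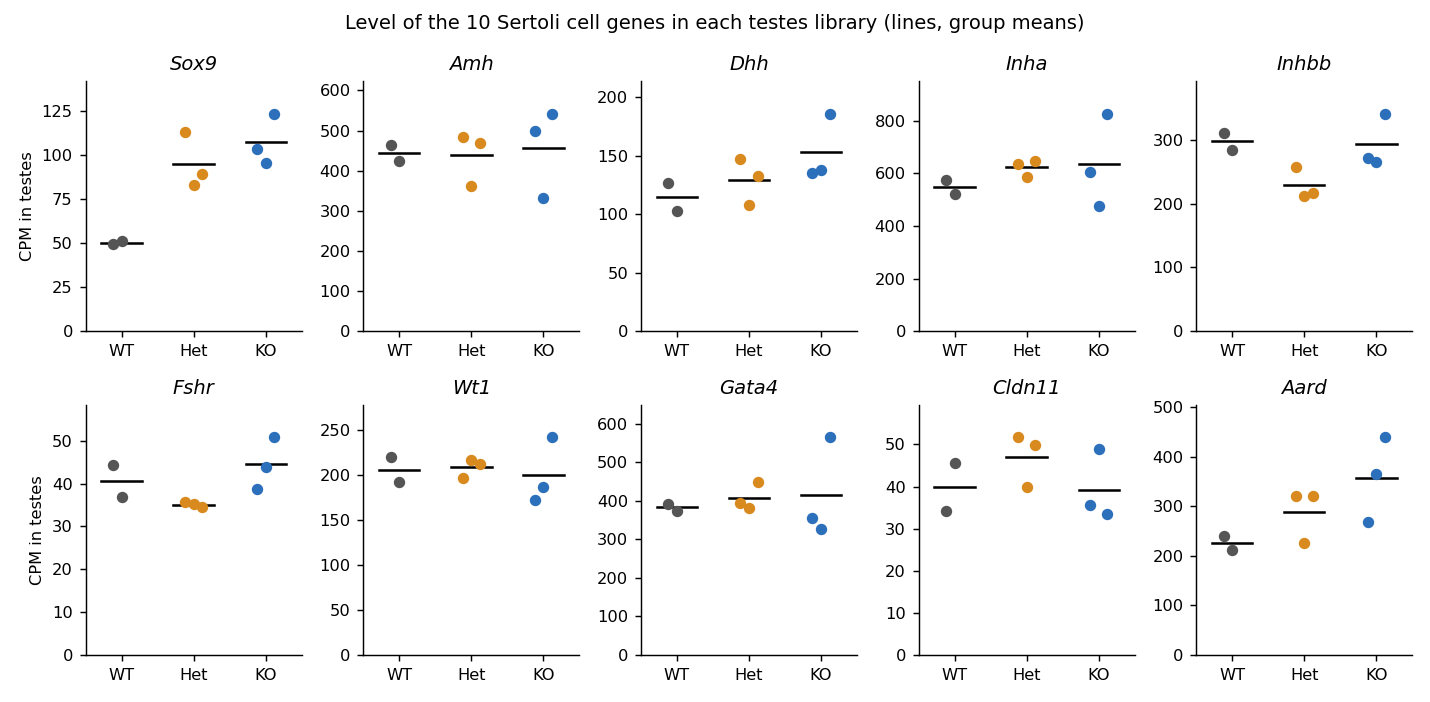
Level in CPM (y axis, from 0) of each of the 10 Sertoli cell genes in the testes libraries of WT (2 points), Het, which is Ocn+/- (3 points), and KO, which is Ocn-/- (3 points), with lines at the group means. The 6 mutant libraries of Sox9 lie between 82.8 and 123 CPM, above both WT libraries at 49.4 and 50.8 CPM. Apart from Sox9, Inha in Het and Aard and Dhh in KO lie above WT, Inhbb and Fshr in Het lie below it, and the other points overlap with WT. How many of all genes separate from the 2 WT libraries in this way was not counted.

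Sox9 lies on chromosome 11 (bases 112673009 to 112678586 of GRCm39, plus strand) and encodes the transcription factor that sets and keeps Sertoli cell identity. Its level was 49.4 and 50.8 CPM in the WT testes. In Ocn+/- testes it was 113, 82.8 and 88.8 CPM, and in Ocn-/- testes 103, 95.2 and 123 CPM. Every mutant library thus lay above both WT libraries, and the mutant groups overlapped. The means were 50.1 ± 1.05 CPM (SD, n = 2) in WT, 94.8 ± 15.8 CPM (n = 3) in Ocn+/- and 107 ± 14.4 CPM (n = 3) in Ocn-/- mice. The log2 fold change was 0.92 (SE 0.154, adjusted p = 0.0031) in Ocn+/- and 1.10 (SE 0.154, adjusted p = 0.00078) in Ocn-/- mice, which is a fold of 1.89 (95% interval 1.51 to 2.37) and of 2.14 (1.71 to 2.68). Ocn-/- and Ocn+/- testes did not differ by the test (log2 fold change 0.18, 95% interval -0.099 to 0.46, adjusted p = 0.618). The call in Ocn+/- mice ended without WT 1 (log2 fold change 0.90, adjusted p = 0.0573), whereas the call in Ocn-/- mice was kept with each library left out in turn.

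The other transcription factors were Wt1 and Gata4, which act upstream of and beside Sox9 in the fetal gonad. Wt1 (chromosome 2, 104956625 to 105003961, plus strand) had 220 and 192 CPM in WT, 196, 217 and 212 CPM in Ocn+/- and 173, 186 and 242 CPM in Ocn-/- testes. Its groups overlapped fully, and the log2 fold change from WT was 0.02 (95% interval -0.28 to 0.32) in Ocn+/- and -0.04 (-0.34 to 0.26) in Ocn-/- mice. Gata4 (chromosome 14, 63436362 to 63509141, minus strand) had 393 and 374 CPM in WT, 394, 382 and 449 CPM in Ocn+/- and 356, 327 and 565 CPM in Ocn-/- testes. The Ocn-/- libraries of Gata4 spanned the values of all other libraries. Its log2 fold change was 0.09 (-0.33 to 0.51) and 0.12 (-0.31 to 0.54).

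Of the secreted products, Amh encodes anti-Müllerian hormone, which removes the Müllerian duct, and is a direct target of Sox9. Amh (chromosome 10, 80641077 to 80643482, plus strand) had 464 and 423 CPM in WT, 484, 362 and 469 CPM in Ocn+/- and 499, 331 and 542 CPM in Ocn-/- testes. The ranges overlapped, with a log2 fold change of -0.02 (-0.43 to 0.39) in Ocn+/- and 0.04 (-0.36 to 0.45) in Ocn-/- mice. The ratio of Amh to Sox9 CPM was 9.40 and 8.33 in the WT testes, 4.29, 4.38 and 5.28 in Ocn+/- and 4.83, 3.48 and 4.40 in Ocn-/- testes. The mutant ratios all lay below the WT ratios. With Amh near the WT level, this restates the higher level of Sox9 and is no separate result.

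Dhh encodes Desert hedgehog, the Sertoli cell signal to Leydig and peritubular cells. Dhh (chromosome 15, 98789033 to 98796439, minus strand) had 127 and 103 CPM in WT, 147, 108 and 133 CPM in Ocn+/- and 135, 138 and 186 CPM in Ocn-/- testes. All 3 Ocn-/- libraries lay above WT. The log2 fold change in Ocn-/- mice was 0.41 (0.062 to 0.77) and missed the threshold (adjusted p = 0.148; 0.0459 without the filter on low counts), and it was 0.17 (-0.18 to 0.52) in Ocn+/- mice.

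Inha and Inhbb encode the alpha and beta-B subunits that pair as inhibin B, the hormone by which Sertoli cells restrain FSH, while 2 beta subunits pair as an activin. Inha (chromosome 1, 75482196 to 75489223, plus strand) had 576 and 523 CPM in WT, 637, 584 and 648 CPM in Ocn+/- and 605, 474 and 827 CPM in Ocn-/- testes. The Ocn+/- libraries lay above WT and the Ocn-/- libraries lay on both sides of it, with a log2 fold change of 0.18 (-0.20 to 0.57) and 0.21 (-0.18 to 0.60). Inhbb (chromosome 1, 119343193 to 119350021, minus strand) had 310 and 285 CPM in WT, 257, 212 and 217 CPM in Ocn+/- and 271, 266 and 341 CPM in Ocn-/- testes. All 3 Ocn+/- values of Inhbb lay below all values of the other 2 genotypes. The log2 fold change against WT was -0.38 in Ocn+/- mice (-0.67 to -0.091, adjusted p = 0.0916) and -0.02 in Ocn-/- mice (-0.31 to 0.27). Between Ocn-/- and Ocn+/- testes it was 0.36 (0.095 to 0.61, adjusted p = 0.322). The ratio of Inha to Inhbb CPM, in which library scaling cancels, was 1.86 and 1.84 in WT, 2.47, 2.75 and 2.99 in Ocn+/- and 2.23, 1.78 and 2.43 in Ocn-/- testes.

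Fshr encodes the receptor by which Sertoli cells sense FSH, Cldn11 a claudin of the blood-testis barrier and Aard an alanine and arginine rich protein of Sertoli cells. Fshr (chromosome 17, 89292380 to 89508139, minus strand) had 44.3 and 36.8 CPM in WT, 35.6, 35.2 and 34.5 CPM in Ocn+/- and 38.6, 44.0 and 50.8 CPM in Ocn-/- testes. Its Ocn+/- values lay below all others, and the log2 fold change was -0.21 (-0.54 to 0.12) against WT, 0.13 (-0.20 to 0.46) for Ocn-/- against WT and 0.34 (0.045 to 0.64, adjusted p = 0.375) between the mutant genotypes. Cldn11 (chromosome 3, 31203900 to 31218495, plus strand) had 34.2 and 45.5 CPM in WT, 51.7, 39.9 and 49.8 CPM in Ocn+/- and 35.6, 48.8 and 33.5 CPM in Ocn-/- testes, with ranges that overlapped. Its log2 fold change was 0.24 (-0.16 to 0.64) and -0.02 (-0.42 to 0.37).

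Aard came closest to the threshold after Sox9. Aard (chromosome 15, 51903503 to 51909204, plus strand) had 240 and 212 CPM in WT, 321, 226 and 320 CPM in Ocn+/- and 268, 366 and 439 CPM in Ocn-/- testes. The 3 Ocn-/- libraries lay above WT, with a log2 fold change of 0.66 (0.22 to 1.11, adjusted p = 0.0793), and Ocn+/- gave 0.36 (-0.086 to 0.80, adjusted p = 0.292). The value in Ocn-/- mice passed with DESeq2 (adjusted p = 0.0079), under the likelihood ratio test (0.0366), with library size alone (0.0479) and without the filter on low counts (0.00011). It also passed without Ocn-/- 1 (adjusted p = 0.0212) or without Ocn+/- 2 (0.0381), and fell to 0.49 (adjusted p = 0.149) without Ocn-/- 3.

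**Figure D2:**
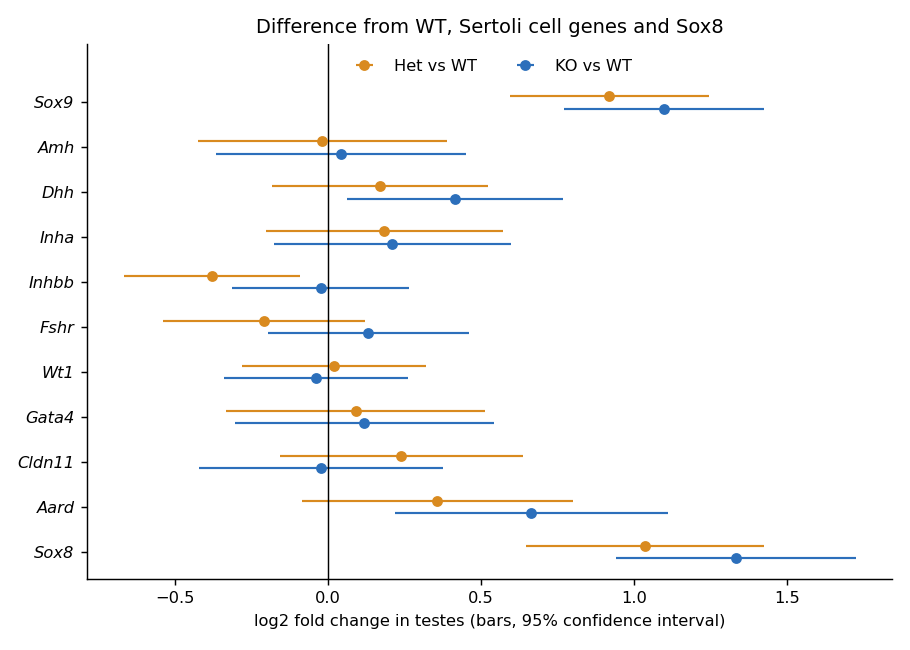
Log2 fold change against WT in testes (x axis; bars are 95% confidence intervals) of the 10 Sertoli cell genes and of Sox8, for Het (Ocn+/-, orange) and KO (Ocn-/-, blue) mice. Both intervals of Sox9 (0.59 to 1.24 and 0.77 to 1.42) and both of Sox8 lie above 0. Of the other members, only Inhbb in Het (-0.67 to -0.091), Dhh in KO (0.062 to 0.77) and Aard in KO (0.22 to 1.11) have an interval that leaves out 0, and none of these passed the test after adjustment.

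No member was called between Ocn-/- and Ocn+/- testes, where 0% of all genes were called by edgeR's quasi-likelihood test. At an unadjusted p under 0.05 there were 1881 genes, of them 2 members, Inhbb and Fshr. DESeq2 called 76 genes and edgeR's likelihood ratio test 59, none of them a member.

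Testes Ocn-/- 3 carried the highest value of 9 of the 10 genes, Cldn11 being the exception, for which it was the lowest. Its 9 genes other than Sox9 lay on average 0.33 above the mean of the testes on the log2 scale, while the other 7 libraries lay between -0.17 and 0.06. Without it the log2 fold change against WT was 0.99 for Sox9 (adjusted p = 0.0013), -0.10 for Amh, 0.25 for Dhh, -0.03 for Inha, -0.15 for Inhbb, 0.03 for Fshr, -0.20 for Wt1, -0.17 for Gata4 and 0.08 for Cldn11. Several lists of other cell types were lowest in the same library. The 8 genes of the epididymis summed to 44.7 CPM there and to 95.1 to 155 CPM in the others, and the 8 macrophage genes to 59.1 against 101 to 151 CPM. Stroma genes summed to 3542 against 4372 to 6116 CPM, myoid genes to 1004 against 1172 to 1591 CPM and endothelial genes to 378 against 393 to 674 CPM. The germ cell, Leydig, erythroid and adipocyte lists were not lowest there. The part of such differences in the make-up of the tissue piece was not tested.

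Sox9 differed from WT also relative to the other members. The ratio of Sox9 to the geometric mean of the other 9 was 0.259 and 0.288 in WT, 0.561, 0.483 and 0.450 in Ocn+/- and 0.559, 0.510 and 0.508 in Ocn-/- testes. The mean ratio was 1.82-fold of WT in Ocn+/- and 1.92-fold in Ocn-/- mice. With the libraries scaled on those 9 genes in place of TMM, a setting chosen after seeing the data, the log2 fold change of Sox9 was 0.86 (adjusted p = 0.0144) and 0.94 (adjusted p = 0.0056). This scaling called 305 genes in Ocn+/- and 388 in Ocn-/- testes, against 1350 and 922 with TMM. The geometric mean itself ran from 176 to 190 CPM in WT, 171 to 201 in Ocn+/- and 185 to 243 in Ocn-/- testes.

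Per kilobase of annotated exon, the order of the members in WT testes was Amh (266 ± 17.3 CPM per kb, SD, n = 2), Aard (157 ± 13.7), Inha (82.2 ± 5.62), Inhbb (69.2 ± 4.20), Gata4 (67.4 ± 2.27), Wt1 (32.0 ± 2.99), Dhh (26.0 ± 3.78), Cldn11 (16.2 ± 3.26), Fshr (15.1 ± 1.97) and Sox9 (12.0 ± 0.251). Inhbb and Gata4 differed by less than their SD, as did Cldn11 and Fshr. In Ocn+/- and Ocn-/- testes Sox9 stood at 22.7 ± 3.78 and 25.7 ± 3.45 CPM per kb (n = 3 each), above Fshr at 13.1 ± 0.205 and 16.6 ± 2.27 and Cldn11 at 19.1 ± 2.57 and 16.0 ± 3.38, although in Ocn+/- mice the gap to Cldn11 was within the SD of Sox9.

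Among 27 other genes of Sertoli cells, 1 rose and 2 fell in Ocn+/- testes and 1 rose and 1 fell in Ocn-/- testes. Of all 16361 genes tested, 8.25% were called in Ocn+/- and 5.64% in Ocn-/- testes, so these counts lie near the share among all genes. The gene that rose in both was Sox8, the closest relative of Sox9 in this cell, which acts beside it on Amh. Sox8 had 38.9 and 41.1 CPM in WT, 106, 76.0 and 63.7 CPM in Ocn+/- and 96.9, 94.9 and 110 CPM in Ocn-/- testes. Every mutant library lay above WT. The log2 fold change of Sox8 was 1.03 (SE 0.183, adjusted p = 0.0053) and 1.33 (SE 0.184, adjusted p = 0.00095). The call in Ocn+/- mice ended without WT 1 (adjusted p = 0.0776) or WT 2 (0.0634), and the call in Ocn-/- mice was kept with each library left out in turn. Kitl, the ligand of the germ cell receptor Kit, had 470 and 374 CPM in WT, 299, 257 and 227 CPM in Ocn+/- and 340, 427 and 379 CPM in Ocn-/- testes. It fell in Ocn+/- mice by 0.69 on the log2 scale (adjusted p = 0.0105), a call that ended without WT 1 (adjusted p = 0.184) or Ocn+/- 3 (0.0530), and its value in Ocn-/- mice was -0.14 (adjusted p = 0.590). Named after their values were seen, the others were Ctsl, lower in Ocn+/-, and Krt18, lower in Ocn-/- mice. Dmrt1 (log2 fold change -0.05 and -0.01), Nr5a1 (0.11 and 0.20) and Gdnf (0.27 and 0.48) did not pass, although Gdnf in Ocn-/- mice did with library size alone (adjusted p = 0.0430). The list had a median log2 fold change of 0.02 (Ocn+/-) and 0.18 (Ocn-/-).

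The signalling partners of the members were counted next. Of 22 tested genes of AMH, inhibin and activin signalling none was called in either mutant genotype by edgeR's quasi-likelihood test. The share among all genes was 8.25% in Ocn+/- and 5.64% in Ocn-/- testes. Amhr2, the AMH receptor, had 45.6 and 43.8 CPM in WT, 77.7, 47.2 and 76.9 CPM in Ocn+/- and 58.7, 57.9 and 82.3 CPM in Ocn-/- testes. All 6 mutant values of Amhr2 lay above WT, with a log2 fold change of 0.59 (adjusted p = 0.112) and 0.57 (0.143), and it passed in both without the filter on low counts (adjusted p = 0.0036 and 0.0060) and without Ocn+/- 2 (0.0097 and 0.0371), and in Ocn+/- mice without Ocn-/- 3 (0.0474). Inhba, the beta-A subunit, had -0.24 and 0.14 and the activin binder Fst 0.11 and 0.15, neither past the threshold. Among 18 hedgehog genes, which hold the receptor and feedback targets of Dhh, 0 were called in Ocn+/- and 1 in Ocn-/- mice, the co-receptor gene Boc, which was lower and is named after its value was seen. The targets Ptch1 (0.09 and 0.21), Gli1 (0.37 and 0.09) and Hhip (-0.02 and 0.33) did not pass. Gli1 in Ocn+/- mice did pass with library size alone (adjusted p = 0.0476), with only the 2 genotypes compared (0.0402) and without Ocn-/- 2 (0.0468).

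The list of FSH receptor and cAMP signalling holds genes downstream of Fshr. Of its 17 tested genes, 0 rose and 5 fell in Ocn+/- testes and 0 rose and 4 fell in Ocn-/- testes. Among all 16361 genes tested, 713 fell in Ocn+/- and 506 in Ocn-/- testes. The median log2 fold change over the list was -0.05 and -0.24. Pde4d, a phosphodiesterase that degrades cAMP, had 46.3 and 38.6 CPM in WT, 11.8, 16.9 and 14.4 CPM in Ocn+/- and 12.3, 12.0 and 11.6 CPM in Ocn-/- testes. The log2 fold change was -1.56 (adjusted p = 0.00018) and -1.82 (adjusted p = 4.8e-05), and neither call ended under any alternative or with any library left out. Prkar2b, a regulatory subunit of protein kinase A, changed by -1.07 (adjusted p = 0.00071) and -0.61 (adjusted p = 0.0239), and Crem, a cAMP-responsive transcription factor, by -1.52 (adjusted p = 0.0012) and -1.05 (adjusted p = 0.0116). In Ocn-/- mice both calls ended without WT 1 (adjusted p = 0.180 and 0.175) or WT 2 (0.170 and 0.0610), and that of Prkar2b also without Ocn-/- 1 (0.0996) or Ocn-/- 3 (0.0561). Nr4a1, in both, and Pde4b, in Ocn+/- mice, also fell and are named after their values were seen. These genes are active in Leydig and other cells of the testis as well, and the cell type of the change was not tested.

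Of 18 genes of cell junctions, 0 rose and 2 fell in Ocn+/- and 1 rose and 1 fell in Ocn-/- mice. Among all genes 8.25% and 5.64% were called in either direction. Cldn1, a claudin of epithelia, was the gene that fell in both, by 0.62 (adjusted p = 0.0437) and by 0.73 (adjusted p = 0.0276) on the log2 scale. Its call in Ocn+/- mice ended with upper quartile normalization (adjusted p = 0.0508), with library size alone (0.0681) and without WT 1, WT 2, Ocn+/- 1, Ocn+/- 3 or Ocn-/- 1 (0.0532 to 0.324). That in Ocn-/- mice ended without WT 1, WT 2, Ocn-/- 2 or Ocn-/- 3 (0.0574 to 0.351). The others, named after their values were seen, were Jam2, lower in Ocn+/-, and Cgn, higher in Ocn-/- mice.

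Markers of the other cells of the testis were read beside these values, and their part in the results was not tested. The counts below stand against 8.25% (Ocn+/-) and 5.64% (Ocn-/-) of all genes called in either direction. Of 10 germ cell genes none was called, and the list of 12 summed to 426 to 482 CPM in WT, 410 to 465 in Ocn+/- and 417 to 447 in Ocn-/- testes. Of 7 tested genes of the female pathway, 1 fell in Ocn+/- and 2 in Ocn-/- mice. This list stands for no cell type of the testis. Bmp2 was lower in both (log2 fold change -1.90 and -2.10, adjusted p = 0.0025 and 0.0010). None of 8 myoid genes was called. Of 11 Leydig cell genes, 1 fell in Ocn+/- and 2 in Ocn-/- mice, and the LH receptor gene Lhcgr was lower in both (-1.23 and -1.19, adjusted p = 0.0013 and 0.0015). The Leydig list of 12 summed to 2584 and 2636 CPM in WT, 1364 to 2109 in Ocn+/- and 1402 to 1849 in Ocn-/- testes. Endothelial genes were lower in both, 5 of 8 in Ocn+/- and 7 of 8 in Ocn-/- mice, among them Flt1 (-1.43 and -1.53), Pecam1 (-0.93 and -1.13) and Kdr (-0.71 and -0.99). Their sum was 670 and 674 CPM in WT, 393 to 465 in Ocn+/- and 378 to 404 in Ocn-/- testes, so that the mutant testes that were high in Sox9 were also low in this list. Without WT 2 the calls of Bmp2 (adjusted p = 0.0694), Pecam1 (0.0576) and Kdr (0.125) in Ocn+/- and of Lhcgr (0.0615) in Ocn-/- mice ended, and that of Kdr also without WT 1 (0.0776). The 7 erythroid genes of the table summed to 2600 and 6865 CPM in WT, 865 to 3943 in Ocn+/- and 1316 to 2517 in Ocn-/- testes. The Ocn+/- sums overlapped with WT, whereas the Ocn-/- sums lay below both WT libraries. None of these genes was called, and all 6 that were tested had a negative log2 fold change in both mutant genotypes. Of 8 stroma genes 1 fell in Ocn+/- mice, of 7 macrophage genes 2 rose in Ocn+/- mice, of 2 adipocyte genes Fabp4 fell in both, and of 8 epididymis genes 1 rose in Ocn+/- and 1 fell in Ocn-/- mice. Both calls of Fabp4 ended without WT 2 (adjusted p = 0.338 and 0.282), and that in Ocn+/- mice also without Ocn+/- 1 (0.0809).

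**Figure D3:**
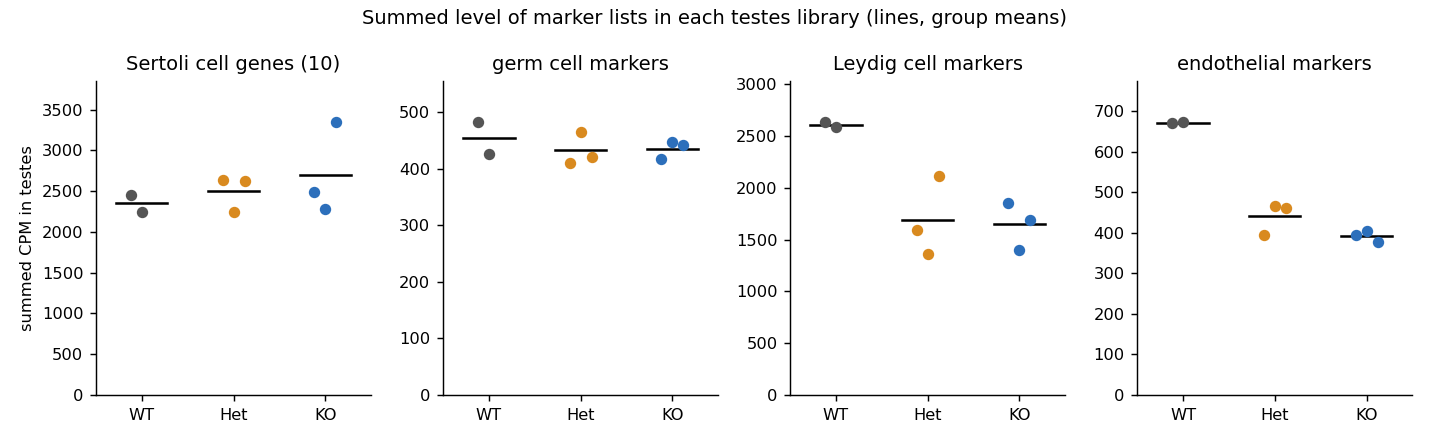
Summed CPM (y axis, from 0) of the 10 Sertoli cell genes, 12 germ cell markers, 12 Leydig cell markers and 8 endothelial markers in each testes library of WT, Het (Ocn+/-) and KO (Ocn-/-) mice, with lines at the group means. The sums of the Sertoli and germ cell genes overlap between WT and mutant libraries, and the Leydig and endothelial sums of every mutant library lie below both WT libraries.

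Several members share sequence or lie beside other genes, and the strandedness of the counting is not given in the sources used here, so that reads of antisense partners cannot be told apart. In 50-base windows of the longest transcript, Sox9 shared 8.41% with the antisense transcript BC006965, Wt1 6.01% with Wt1os and Inhbb 1.72% with Gm41935. Dhh shared 25.1% with the antisense transcript Gm49442 and 10.6% with genes on its own strand. Inha shared 29.1% with genes on the opposite strand and 0.744% with genes on its own. Of the windows of Inha, 19.5% were shared with Obsl1, which overlaps it on the opposite strand by 1099 exon bases. Amh, Fshr, Gata4, Cldn11, Aard and Sox8 shared none. Gm49442 was called higher in both mutant genotypes (2.46-fold and 2.73-fold, adjusted p = 0.0204 and 0.0142), at 3.41 to 5.83 CPM in WT and 9.94 to 17.3 CPM in mutant testes, calls that ended without WT 2 (adjusted p = 0.245 and 0.264) and, in Ocn+/- mice, also without WT 1 (0.0632), Ocn+/- 1 (0.0630) or Ocn+/- 3 (0.0662). The level of Dhh is uncertain to that extent. Obsl1 was not called (0.17 and 0.04). The gene upstream of Amh on the same strand, Sf3a2, ends 318 bases before it and was higher in both (0.77 and 0.50, adjusted p = 0.0054 and 0.0499), while Amh did not pass. The call of Sf3a2 in Ocn-/- mice ended with upper quartile normalization (adjusted p = 0.0526), with only the 2 genotypes compared (0.0646) and without WT 1, WT 2, Ocn-/- 1, Ocn-/- 3, Ocn+/- 1 or Ocn+/- 3 (0.0509 to 0.365), and that in Ocn+/- mice without WT 1 (adjusted p = 0.0763) or WT 2 (0.0891).

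Of the 10 members, 5 had a promoter in the RefSeq table of GRCm38.p6, from 250 bases before to 50 bases after the start of the gene: Dhh, Inha, Inhbb, Fshr and Cldn11. Those of Sox9, Amh, Wt1, Gata4 and Aard were not analysed here. Both strands were searched for the E-box CACGTG, the SOX motif ACAAT, the GATA motif AGATAA, the steroidogenic factor motif AAGGTCA and the cAMP response element TGACGTCA. Among all 32851 promoters of the table these occur in 7.15%, 31.0%, 11.2%, 4.72% and 1.79%. The 2 members with a match are shown, each 5' to 3' on its own strand with the match in capitals. Fshr lies at chr17:89200626-89200925 (minus strand) and holds the E-box from base 190 of the window on, and Inhbb at chr1:119422199-119422498 (minus strand) and holds the SOX motif, read on the opposite strand, from base 252 on.
Fshr: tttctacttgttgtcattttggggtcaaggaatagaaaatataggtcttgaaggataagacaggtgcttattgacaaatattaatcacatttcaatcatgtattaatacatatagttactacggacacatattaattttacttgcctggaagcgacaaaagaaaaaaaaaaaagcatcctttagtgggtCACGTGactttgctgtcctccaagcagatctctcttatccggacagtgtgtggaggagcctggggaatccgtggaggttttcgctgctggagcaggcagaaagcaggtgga
Inhbb: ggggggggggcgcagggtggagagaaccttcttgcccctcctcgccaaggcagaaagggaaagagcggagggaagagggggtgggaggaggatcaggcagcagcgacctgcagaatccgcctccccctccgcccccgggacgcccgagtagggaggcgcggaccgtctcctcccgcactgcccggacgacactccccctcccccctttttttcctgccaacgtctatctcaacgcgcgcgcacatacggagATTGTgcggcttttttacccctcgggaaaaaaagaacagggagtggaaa
A match describes these letters only and is no evidence of binding.

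Forebrain served as the tissue without Sertoli cells. With the 17 libraries scaled together, all 10 members were higher in testes. They were chosen as genes of a testis cell, so the direction is no test of them. Amh, Dhh, Fshr, Wt1 and Gata4 did not pass the filter in forebrain. Of all 17800 genes, 84.4% differed between the tissues in either direction, with 7929 higher and 7094 lower in testes. Among the members the difference was smallest for Sox9, which radial glia and astrocytes also express, with a log2 fold change of 0.99 (0.80 to 1.18). Cldn11, a myelin claudin in the brain, came next with 1.12 (0.88 to 1.35). Sox9 stood at 78.2 ± 23.9 CPM in 8 testes and 35.9 ± 5.16 CPM in 9 forebrains on this scale. The 2 WT testes, at 43.8 and 45.3 CPM, lay on either side of the highest forebrain, WT 3 at 45.2 CPM, whereas all mutant testes lay above all forebrains.

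Inhbb differed by 3.77 on the log2 scale, Inha by 4.14 and Aard by 6.41. The forebrain value of Inha, 25.2 to 35.2 CPM, is uncertain because Obsl1, which overlaps it, is expressed there at 21.0 to 29.6 CPM in the forebrain scaling. Amh had 2 to 11 counts in a forebrain, Dhh 1 to 12, Wt1 1 to 8 and Gata4 0 to 5, against 290 to 487, 91.7 to 167, 154 to 217 and 287 to 507 CPM in testes. Fshr had at most 2 counts in any forebrain, so its mean of 35.5 CPM in testes is at least 59.6-fold higher than the 0.595 CPM that 3 counts would give in the shallowest forebrain. The scaling moved these values: the median over all genes was 0.09 with TMM and 0.40 with library size alone, where Sox9 had 1.31.

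**Figure D4:**
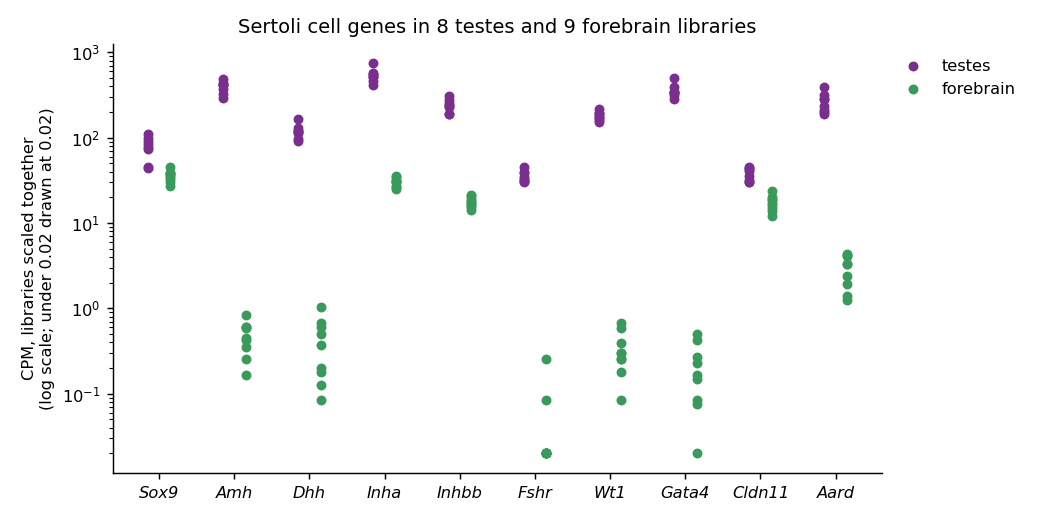
Level of the 10 Sertoli cell genes in 8 testes (purple) and 9 forebrain (green) libraries, in CPM with all libraries scaled together, on a logarithmic y axis where values under 0.02 are drawn at 0.02. The tissues are separated for Amh, Dhh, Inha, Inhbb, Fshr, Wt1, Gata4, Cldn11 and Aard, and the WT testes reach the highest forebrain for Sox9.

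No member was called between genotypes in forebrain, where 3.89% of 16076 genes were called in Ocn+/-, 4.85% in Ocn-/- mice against WT and 0.00622% between the mutant genotypes. At an unadjusted p under 0.05, 0 of the 5 tested members differed from WT in either genotype by edgeR's quasi-likelihood test, against 3267 and 3489 of all 16076 genes, and DESeq2 called 0 as well. Between the mutant genotypes 1 member, Aard, did so (log2 fold change -0.85), as did 515 of all genes. Sox9 in forebrain had 30.0, 25.0 and 40.6 CPM in WT, 34.0, 34.9 and 27.6 CPM in Ocn+/- and 33.8, 33.0 and 31.2 CPM in Ocn-/- mice. These values overlapped, with a log2 fold change of 0.03 (-0.27 to 0.34) and 0.05 (-0.25 to 0.36). Without WT 3, the forebrain that stood apart, it was 0.22 (adjusted p = 0.464) and 0.25 (adjusted p = 0.393). Inha differed from WT by -0.03 and -0.11, Inhbb by -0.10 and -0.21, Cldn11 by -0.12 and -0.29, and Aard, at 1.12 to 3.88 CPM, by 0.46 and -0.40.

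The difference between mutant and WT mice was then compared between the tissues, as the mean of both mutant genotypes minus WT in testes minus the same in forebrain. Sox9 was the only member that passed (0.95 on the log2 scale, 95% interval 0.53 to 1.38, adjusted p = 0.0140), where 2.96% of all genes did. Sox8 passed as well (0.95, adjusted p = 0.0159). Without testes WT 1 or WT 2 the value of Sox9 was 0.93 and 0.97 and missed the threshold (adjusted p = 0.0870 and 0.0887), and without forebrain WT 3 it was 0.77 (adjusted p = 0.0417). That of Sox8 missed it without testes WT 1 (0.91, adjusted p = 0.100), testes WT 2 (0.99, 0.0898) or forebrain WT 2 (0.87, 0.0537). None of the other 9 members passed. Among those with enough counts in forebrain, Inha had 0.26 (-0.20 to 0.71), Inhbb -0.06 (-0.42 to 0.30), Cldn11 0.30 (-0.23 to 0.83) and Aard 0.53 (-0.40 to 1.46). For Amh, Dhh, Fshr, Wt1 and Gata4 the forebrain counts, 12 at most, are too few to compare.

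**Figure D5:**
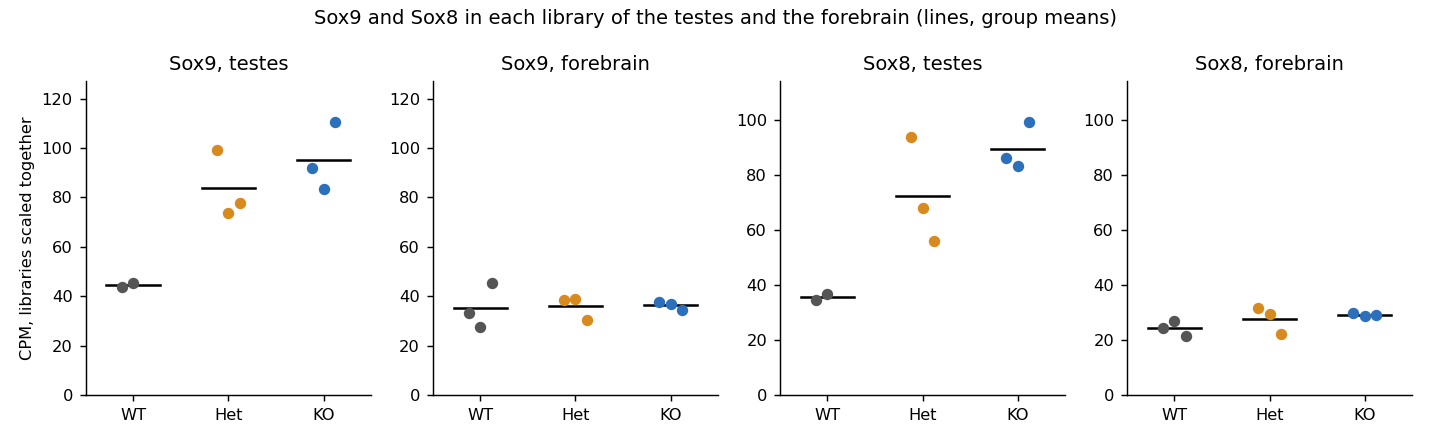
Level of Sox9 and Sox8 (y axis, CPM with all 17 libraries scaled together, from 0) in each testes and forebrain library of WT, Het (Ocn+/-) and KO (Ocn-/-) mice, with lines at the group means. In testes all mutant points of both genes lie above WT, from 73.8 to 111 CPM for Sox9 against 43.8 and 45.3, and in forebrain the genotypes overlap, apart from Sox8, whose KO points (28.7 to 29.9 CPM) lie above its WT points (21.4 to 26.8 CPM).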

How the data were processed

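Testes and forebrain RNA was sequenced after poly-A selection. The authors trimmed, aligned and counted the reads per gene, and deposited RSEM expected counts. Trim Galore 0.6.6, STAR 2.7.8a, RSEM 1.3.3 and GRCm39 are named in the submitters' processing notes. The annotation release and the strandedness of the counting are not given in the sources used here. Identifiers were matched to GENCODE, with 54749 of 55359 found, 31367 in the same version. Of the genes, 9625 had a value that is not whole, and the expected counts were rounded first. In R 4.3.3, edgeR 4.0.16 fitted its robust quasi-likelihood model to the 3 genotypes of a tissue, after filterByExpr and TMM, with Benjamini-Hochberg adjustment over all genes tested (16361 in testes, 16076 in forebrain). A fit to all 17 libraries (17800 genes) compared the tissues and tested the interaction. Intervals are 95% intervals of the fit, and errors are SD over libraries.

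The alternatives tried were DESeq2 1.42.0, the likelihood ratio test, scaling by upper quartile or by library size alone, no filter or at least 10 counts in every library, only the genotypes compared, a replicate block, each library left out and, for Sox9 and Sox8 and chosen after seeing the data, scaling on the other 9 members. The fitting was tested on simulated data. The text names the 10 members, Sox8, 10 partner genes fixed by role, neighbours of the members, defining markers of the tissues and, from each list, up to 3 genes with the smallest adjusted p in Ocn+/- testes among those called in both mutant genotypes. Other genes are named after their values were seen. The members and lists were chosen with earlier results of these data known. Some marker genes of the tissue check are not reported here.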

Additional observations from a re-analysis of the deposited data

Results flagged for a closer look

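For 6 genes that the text names, the difference between mutant and WT mice (mean of both mutant genotypes minus WT, log2) was not the same in testes and forebrain by edgeR's test of the difference itself over 17 libraries. It was 0.95 for Sox9 (adjusted p = 0.0140) and 0.95 for Sox8 (adjusted p = 0.0159), both larger in testes. It was -1.47 for Pde4d (adjusted p = 1.1e-05), -1.25 for Crem (adjusted p = 0.0108), -0.67 for Prkar2b (adjusted p = 0.0116) and -1.91 for Bmp2 (adjusted p = 0.0178), all lower in testes. Both WT testes enter all of these values, and without either of them Sox9 and Sox8 missed the threshold. For Pde4d, Crem, Prkar2b and Bmp2 this difference was not recomputed under the alternatives or with libraries left out.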

How the results depend on the processing

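Sox9 in Ocn-/- testes passed under every alternative run, from 0.94 to 1.18 (adjusted p at most 0.020), and all 10 members stayed higher in testes than in forebrain. Only 2 WT testes were sequenced, which limits every comparison with WT. Without a filter 2149, 1763 and 252 genes were called in testes (Ocn+/- and Ocn-/- against WT, Ocn-/- against Ocn+/-), 1265, 1502 and 34 in forebrain, 1023 in the interaction, and 3 members in Ocn-/- testes (Sox9, Aard and Dhh). DESeq2 called 76 genes between mutant testes, 5 between mutant forebrains and 1027 in the interaction, the likelihood ratio test 59, 5, 1389 in Ocn-/- testes and 944 in Ocn+/- forebrain, and each called 2 members in Ocn-/- testes, as did library size alone. Library size alone called 369 genes in Ocn+/- and 2 between mutant forebrains. At least 10 counts in every library gave 3 and 0 between mutant testes and forebrains, and only the 2 genotypes compared gave 2084 in Ocn+/- testes and 0 between mutant forebrains.

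Small values changed sign. With library size alone they were 0.060 for Amh, 0.027 for Dmrt1 and 0.059 for Hhip in Ocn+/- testes, 0.055 for Cldn11, 0.066 for Dmrt1, 0.055 for Inhbb and 0.038 for Wt1 in Ocn-/- testes and 0.049 for Inha in Ocn+/- forebrain. Dmrt1 in Ocn-/- testes was 0.00028 with DESeq2 and 0.0067 with only the 2 genotypes. The cause was not tested.

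Within a tissue, the deviations of same-numbered libraries correlated by -0.094 to 0.087 in testes and -0.037 to 0.146 in forebrain. Between testes and forebrain the 8 same-numbered pairs were all positive (0.010 to 0.0997, median 0.051), against -0.077 to 0.023 (median -0.033) for the 16 other pairs. Not every pair passed 0.1, the limit set for pairing, and the labels name nothing that same-numbered samples share, so the numbers were not treated as pairs. The fits over both tissues take the libraries as independent. With the replicate number as a block the members had a median of 0.0037 (Ocn+/- testes) and 0.034 (Ocn-/- testes), while 966 and 836 genes were called in testes against WT, 1 between mutant testes, 768 and 1140 in forebrain and 492 in the interaction. The calls of Cldn1 (adjusted p = 0.0828 in Ocn+/-, 0.0559 in Ocn-/-), Sf3a2 in Ocn-/- (0.0893) and Fabp4 in Ocn+/- testes (0.0697) were not made under the block, which ended no other call among the genes recomputed. Genes named after their values were seen were not recomputed. Under the block Gata4 was -0.066, Wt1 -0.060 and Hhip 0.048 in Ocn+/- testes, Amh -0.084, Gata4 -0.079, Cldn11 0.0088 and Obsl1 -0.0050 in Ocn-/- testes, and Gata4 -0.013 and Inha -0.0077 between mutant testes.

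With 1 library left out, Ocn+/- against WT testes gave 118 (without WT 2) to 2019 calls, with 0 to 1 members, and Ocn-/- against WT 85 (without WT 2) to 1559, with 1 to 2. Mutant testes gave 0 to 47, Ocn+/- forebrain 183 to 830, Ocn-/- forebrain 189 to 919, mutant forebrains 1 to 2 and the interaction 93 to 1070, with 0 to 1 members. Values that changed sign in Ocn+/- testes ran from -0.090 to 0.11 for Amh, -0.057 to 0.12 for Wt1, -0.12 to 0.12 for Hhip, -0.18 to 0.30 for Fst and -0.21 to 0.16 for Dmrt1. In Ocn-/- testes they ran from -0.10 to 0.23 for Amh, -0.026 to 0.38 for Inha, -0.15 to 0.050 for Inhbb, -0.20 to 0.077 for Wt1, -0.17 to 0.26 for Gata4, -0.21 to 0.22 for Cldn11, -0.023 to 0.21 for Gli1, -0.12 to 0.16 for Dmrt1, -0.28 to 0.037 for Kitl and -0.027 to 0.11 for Obsl1. Without a change of sign, values in Ocn+/- testes ran from 0.043 to 0.33 for Dhh, -0.32 to -0.064 for Fshr and 0.053 to 0.48 for Cldn11, among 29 of 97 values of named genes within a tissue that moved by over 1.5 times and kept their sign. Of these, 28 were not called, and the other was Fabp4 in Ocn+/- testes (-2.05 to -1.08). Between mutant testes the ranges were -0.079 to 0.25 for Amh, -0.21 to 0.20 for Inha, -0.22 to 0.048 for Wt1 and -0.26 to 0.17 for Gata4. In forebrain Sox9 ran from -0.11 to 0.22, Inha from -0.14 to 0.064 and Cldn11 from -0.29 to 0.056 in Ocn+/-, Sox9 from -0.090 to 0.25 and Aard from -0.84 to 0.14 in Ocn-/- mice, and Sox9 from -0.078 to 0.085, Inha from -0.25 to 0.029 and Sox8 from -0.056 to 0.18 between them. In the interaction Inhbb ran from -0.14 to 0.090 and Aard from -0.053 to 0.76.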
